A study of Bos taurus with 30 samples.

Results

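The miR-17/miR-92a cluster and its paralogs were examined in small RNA libraries of the anterior pituitary, the lobe of the gland that secretes growth hormone, the gonadotropins and other trophic hormones. The 10 members were bta-miR-17-5p, bta-miR-18a, bta-miR-19a, bta-miR-20a, bta-miR-19b, bta-miR-92a, bta-miR-106b, bta-miR-93, bta-miR-25 and bta-miR-363. They were chosen by name from the 1030 mature bovine miRNAs in the deposited table, and all 10 were among the 419 that passed the filter on low values. All 30 calves were Holstein-Friesian bulls, and the groups differed in diet. The 15 HI calves were given 1.5 kg of milk replacer made up to 10 litres each day, with concentrate ad libitum, and the 15 MOD calves were given 0.5 kg in 4 litres with at most 0.5 kg of concentrate. Feeding started at 2 weeks of age, the tissue was taken at 12 weeks, and each calf gave 1 library. Values are CPM (reads per 1e+06 reads of the library) divided by a library's TMM factor, a scaling that sets the bulk of the miRNAs to the same level in every library.

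The miR-17/miR-92a cluster is a polycistron, a single transcript from which several hairpins are cut, and it is best known for promoting proliferation and survival in development and in tumours. Mammals carry a pair of paralogous clusters, miR-106b/miR-25, which lies in an intron of the replication licensing gene MCM7, and miR-106a/miR-363 on the X chromosome. The members fall into 4 seed families, groups that share the bases with which a miRNA recognises its targets. The miR-17 family (miR-17-5p, miR-20a, miR-106b and miR-93) is known to repress cell cycle inhibitors and E2F factors, the miR-19 family holds miR-19a and miR-19b, the miR-18 family is represented by miR-18a, and the miR-92 family holds miR-92a, miR-25 and miR-363. By the neighbour order that RefSeq gives for ARS-UCD2.0, the genes MIR17, MIR18A, MIR19A, MIR20A, MIR19B and MIR92A-1 followed each other with no other gene between them. MIR106B, MIR93 and MIR25 lay inside MCM7, and MIR363, MIR92A-2, MIR19B-2, MIR20B, MIR18B and MIR106A formed the other run. The mature miR-19b and miR-92a therefore each have a gene in 2 of the clusters, and their values cannot be told apart by gene.

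The libraries held 6650492 to 11086524 reads on miRNAs, so that 3 reads were worth 0.266 to 0.419 CPM. The tissue label was borne out by its endocrine markers, with miR-375 at 103334 to 197219 CPM and miR-7 at 11597 to 27593 CPM. Of the muscle markers, miR-1 and miR-206 were each at 0 in 29 of 30 libraries, while miR-133a was detected in every library, at 5.15 to 77.3 CPM. In bulk tissue, fewer cells of a type and less RNA per cell cannot be told apart. A set of 9 libraries, those of the highest label numbers, stood apart from the other 21. It held 5 HI and 4 MOD calves and the other set 10 and 11, and so correlations are given within these sets. HI calf AP13745, with miR-143, a smooth muscle miRNA, at 181565 CPM, the highest of the 30, and HI calf AP37840, with the highest miR-19a and miR-19b, also stood apart. The calves came from several farms that the labels do not name.

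The members differed widely in level, and miR-92a and miR-25 of the miR-92 family made up most of their reads. Mean levels were 5663 ± 626 CPM for miR-92a and 5622 ± 293 CPM for miR-25 (SD, n = 30), at ranks 33 and 34 of the 419 miRNAs. miR-19b followed with 783 ± 239 CPM and miR-93 with 464 ± 46.9 CPM. Below them were miR-106b with 132 ± 18.8 CPM, miR-19a with 102 ± 46.4 CPM, miR-17-5p with 74.7 ± 9.62 CPM and miR-20a with 53.3 ± 9.50 CPM. The least abundant were miR-18a with 13.2 ± 3.93 CPM, at 67 to 200 reads a library, and miR-363 with 8.005 ± 2.07 CPM, at 39 to 131 reads. The 10 members together took 1.13% to 1.71% of the reads of a library. Of these reads, 87.5% ± 2.07 belonged to the miR-92 family, 6.82% ± 1.96 to the miR-19 family, 5.61% ± 0.491 to the miR-17 family and 0.102% ± 0.0280 to miR-18a (SD, n = 30). Each read covers a whole mature miRNA, so levels need no division by length, but how well each miRNA is captured in a library was not measured.

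**Figure D1:**
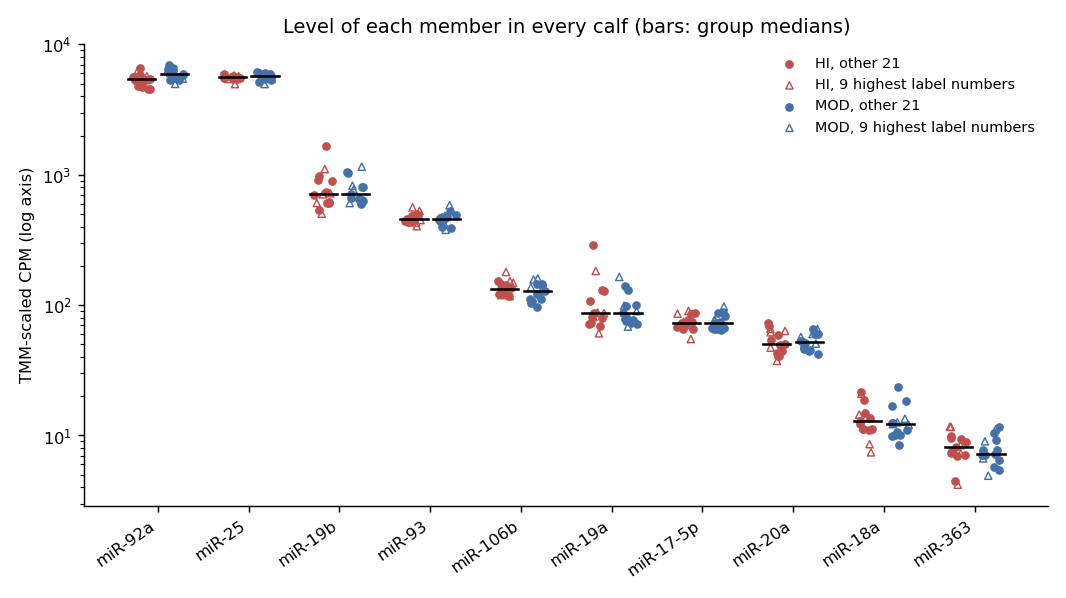
TMM-scaled CPM (log axis) of each of the 10 members in every calf, with HI calves in red, MOD calves in blue, open triangles for the 9 calves with the highest label numbers, filled circles for the other 21, and black bars for group medians. The 2 most abundant members lie between 4525 and 6959 CPM, the 2 diets overlap for every member, and a single HI calf stands above the others for miR-19a and miR-19b.

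In the order of level, miR-92a and miR-25 could not be ranked. The ratio of miR-92a to miR-25 within a library averaged 1.00 and ran from 0.812 to 1.201, and miR-92a was the higher in 15 of 30 libraries (two-sided sign-flip permutation test, p = 0.902, adjusted p = 0.902 over the 9 neighbouring pairs). The mean ratios of the other 8 neighbours passed this test. The closest of them, whose mean log2 ratios of 0.36 and 0.46 were about as large as their SDs between calves, 0.44 and 0.45, were miR-19a over miR-17-5p, with a ratio of 1.28 and the same order in 26 of 30 libraries (p = 1e-05, the smallest that 100000 resamples can give, adjusted p = 1.29e-05), and miR-106b over miR-19a, with a ratio of 1.37 in 27 of 30 libraries (p = 5e-05, adjusted p = 5.62e-05 by the same permutation test). The other 6 kept their order in 29 or 30 of the 30 libraries.

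Within the 6 members that follow each other in the miR-17/miR-92a transcript, levels thus differed widely. Relative to miR-17-5p in the same library, miR-92a stood at a median of 74.7 times (52.5 to 105) and miR-19b at 9.72 times (7.85 to 23.0), while miR-20a stood at 0.701 (0.569 to 0.834) and miR-18a at 0.169 (0.122 to 0.269). How much of miR-92a and miR-19b came from the X-linked run was not measured. Its own mature members were low, since miR-363 had the level given above and the others were lower still, with miR-18b at 2 to 14 reads a library, miR-20b at 2 to 12 and miR-106a at 4 to 20. In the MCM7 cluster, miR-25 stood at a median of 12.3 times miR-93 (10.00 to 14.6) and 43.1 times miR-106b (31.6 to 55.5).

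On the deposited scaling miR-25 was the steadiest of the 419 miRNAs tested, whereas miR-19a varied most among the members. Levels of miR-25 ran from 4962 to 6197 CPM, a range of 1.25-fold, with a coefficient of variation of 5.22%. Its SD of log2(CPM + 1) over the 30 calves was 0.08, rank 1 from the lowest of 419, where the median miRNA had 0.25. The rank was 1 in the 21 libraries and in HI calves, 8 in MOD calves, 9 in the 9 libraries and 5 when libraries were scaled by total counts. miR-32, a relative of the same seed family from another locus, had rank 7 over the 30 libraries. miR-93 (SD 0.14), miR-92a (0.16) and miR-17-5p (0.18) were below the median too, and miR-106b had 0.20.

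miR-19a ran from 60.8 CPM in HI calf AP93744 to 291 CPM in HI calf AP37840, a range of 4.79-fold, and miR-19b from 503 to 1665 CPM in the same calves, a range of 3.31-fold. Their SDs of log2(CPM + 1) were 0.49 and 0.38, at ranks 381 and 339 of 419. For miR-18a and miR-363 the SDs were close to that of miR-19b, at 0.37 and 0.34 (ranks 335 and 319). In MOD calves miR-19b had 0.30, below miR-18a with 0.35 and miR-363 with 0.33. In the 9 libraries it had 0.394, below 0.397 for miR-18a and 0.469 for miR-363. The next calves were far below AP37840, at 183 CPM for miR-19a in HI AP93760 and 1154 CPM for miR-19b in MOD AP97821. In AP37840 the other members were not raised with them. Its miR-17-5p was 72.4 CPM, its miR-18a 12.9 CPM, its miR-20a 54.3 CPM and its miR-25 5407 CPM, all inside the range of the other HI calves. The same library had the lowest miR-92b of the 30, at 2187 CPM, and a TMM factor of 1.146. HI calf AP93744 had the lowest values of miR-17-5p, miR-18a, miR-19a, miR-20a and miR-19b.

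**Figure D2:**
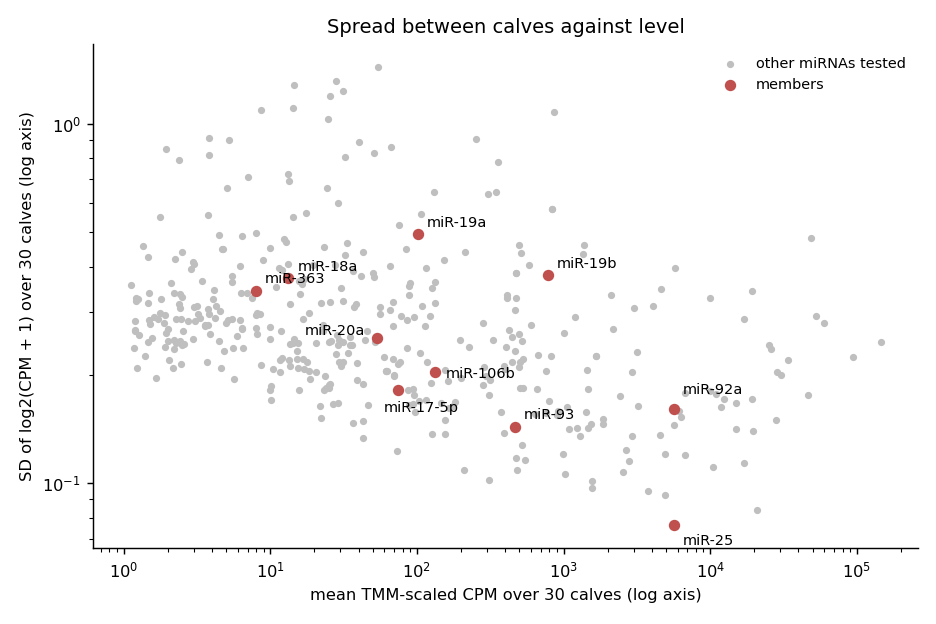
SD of log2(CPM + 1) over the 30 calves against mean TMM-scaled CPM (both log axes) for the 419 miRNAs tested, with the 10 members in red. miR-25 has the lowest SD of all, 0.08, and miR-19a, at 0.49, lies in the upper part of the cloud.

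The main comparison asked whether the plane of nutrition changed the level of these miRNAs. No member passed FDR < 0.1 (limma on log2(CPM + 1), Benjamini-Hochberg over the 419 miRNAs), against a background of 15 of 419, or 3.58%, and none passed FDR < 0.1 with a fold change above 1.5, against 0.477%. At an unadjusted p under 0.05 there was 1 of 10 members, miR-92a, against 12.6% of all miRNAs tested. By estimate 5 members were higher in HI calves and 5 lower. Their median log2 fold change was 0.01, beside 0.02 over all miRNAs, and their median absolute log2 fold change was 0.04, beside 0.07. The 95% intervals of all 10 members lay within a fold of 1.5 in either direction, as did those of 90.2% of the miRNAs tested. The HI and MOD calves overlapped for every member, but no share of overlapping miRNAs among all those tested is given beside this.

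miR-92a, which is also known for its role in the endothelium, came nearest to a difference. Its lowest, median and highest values were 4525, 5444 and 6600 CPM on the HI diet and 4981, 5897 and 6959 CPM on the MOD diet. The groups overlapped, with 4 HI calves below all MOD calves, 1 MOD calf above all HI calves, and 2 of 15 HI calves above the MOD median. The log2 fold change was -0.13 (SE 0.05), a fold of 0.912 (95% interval 0.844 to 0.985), with an FDR of 0.269 by limma. Within the 21 libraries the difference was -0.19 on the log2 scale (exact two-sided permutation test, p = 0.0103, unadjusted) and within the 9 it was -0.0057 (p = 0.937, exact, where the smallest possible is 0.00794). The difference between these effects did not pass the test (limma interaction, FDR 0.800). The red blood cell markers, all 3 of which were detected, summed to 10578 to 24489 CPM on HI and 15557 to 27422 CPM on MOD. Its median was 17406 CPM on HI and 20588 CPM on MOD. That sum was nearly all miR-486, at 10396 to 27356 CPM over all calves. miR-451 was at 56.8 to 403 CPM and miR-144 at 1.80 to 12.7 CPM. The sum therefore does not show the direction of these less abundant markers. By estimate miR-144 was higher on HI, with a log2 fold change of 0.46 (FDR 0.115, limma). The paper, which used edgeR, lists both miR-144 and miR-451 as higher in HI calves. The r of miR-92a with the sum was 0.24 in the 21 libraries and -0.05 in the 9. With miR-486 as a covariate the log2 fold change of miR-92a was -0.14 (FDR 0.400, limma).

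miR-25, of the same seed family and the same level, ran through 4962, 5639 and 5896 CPM on the HI diet and 4965, 5717 and 6197 CPM on the MOD diet. Here 5 MOD calves lay above all HI calves, and 3 of 15 HI calves exceeded the MOD median. The fold was 0.981 (0.936 to 1.03) with an FDR of 0.872, the narrowest interval of the 10. The median ratio of miR-92a to miR-25 in a library, which needs no scaling, was 0.957 in HI calves and 1.09 in MOD calves. The third member of the family, miR-363, had medians of 8.12 CPM on the HI diet and 7.25 CPM on the MOD diet, with a fold of 1.03 (0.865 to 1.23).

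In the miR-17 family, miR-106b had the largest estimate. Its lowest, median and highest values were 117, 132 and 180 CPM on the HI diet and 96.6, 129 and 160 CPM on the MOD diet, and 5 MOD calves lay below all HI calves. The log2 fold change was 0.09 (SE 0.07) with an FDR of 0.731. The medians of the other family members hardly differed, at 72.4 CPM on HI and 73.3 CPM on MOD for miR-17-5p, 49.9 and 52.3 CPM for miR-20a, and 461 and 462 CPM for miR-93. HI calves were the more scattered for miR-20a, with 3 above and 3 below all MOD calves. The folds of these 3 miRNAs were 0.988 (0.896 to 1.09), 0.985 (0.864 to 1.12) and 1.02 (0.942 to 1.10).

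The miR-19 and miR-18 families gave the widest intervals. miR-19a ran through 60.8, 86.7 and 291 CPM on the HI diet and 68.4, 86.7 and 165 CPM on the MOD diet, and miR-19b through 503, 708 and 1665 CPM against 600.4, 710 and 1154 CPM. The medians were thus nearly equal, while both the lowest and the highest calves were on the HI diet. The folds were 1.06 (0.831 to 1.36) for miR-19a and 0.997 (0.825 to 1.21) for miR-19b. Without HI calf AP37840 the log2 fold change of miR-19a turned from 0.09 to -0.025. For miR-18a the medians were 12.9 and 12.2 CPM and the fold was 1.04 (0.862 to 1.26). None of the 9 members other than miR-92a had an exact p under 0.05 in the 21 or in the 9 libraries. By limma in the 21 alone, 49 of 417 miRNAs had an unadjusted p under 0.05, 1 member among them. In the 9 alone limma gave 26 of 432 miRNAs and 0 members.

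**Figure D3:**
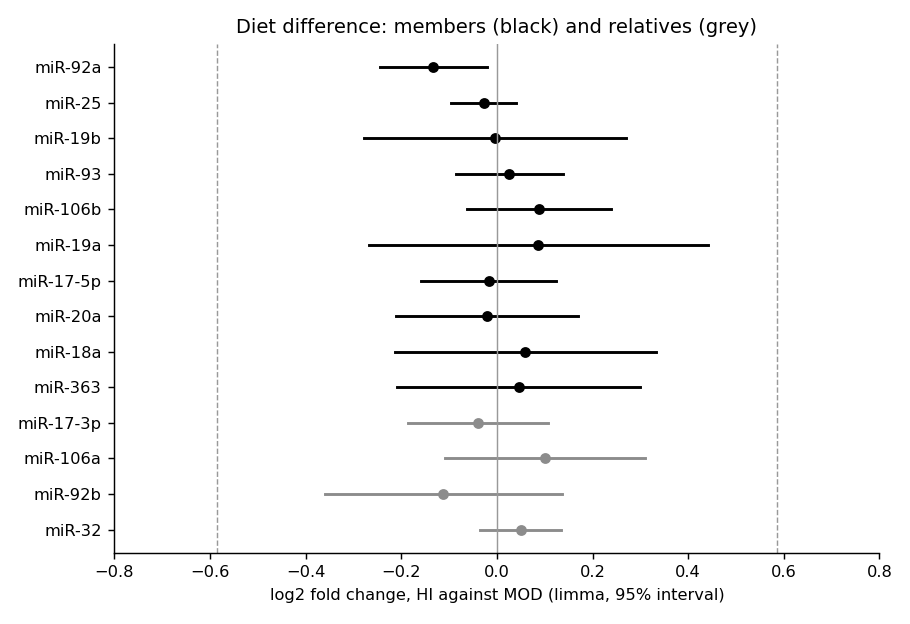
Log2 fold change of HI against MOD with its 95% interval from limma, for the 10 members (black) in order of level and 4 relatives (grey), where dashed lines mark a fold of 1.5. Every interval stays inside the dashed lines, and that of miR-92a, from a fold of 0.844 to 0.985, is the one that leaves out 0.

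Of the 7 relatives, which are the other arm of miR-17 and further members of the clusters and seed families, 4 passed the filter and none passed FDR < 0.1 (lowest FDR 0.731). miR-92b, which shares the miR-92 seed and stood at 4587 ± 1056 CPM (SD, n = 30), had a fold of 0.925 (0.779 to 1.10). miR-32 had 1.04 (0.976 to 1.10), miR-106a 1.07 (0.927 to 1.24) and miR-17-3p 0.973 (0.880 to 1.08). miR-18b and miR-20b did not pass the filter, and miR-367 was at 0 in 29 of 30 libraries, with 1 read in the remaining one. On the other scalings the directions depend on the setting. With total counts 9 of the 10 members had estimates above 0, and no member had an unadjusted p under 0.05, while the median of all miRNAs moved from 0.02 to 0.07.

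The set of 9 was taken because it stood apart in earlier results of these same data. A comparison of levels between the sets therefore describes them and cannot serve as evidence that they differ. Between the 9 libraries and the other 21, with diet in the model, 1 of 10 members passed FDR < 0.1, beside 26.0% of all miRNAs tested. This was miR-106b, at 117 to 180 CPM (median 149) in the 9 and 96.6 to 153 CPM (median 126) in the 21, so that the sets overlapped. The log2 difference was 0.19 (SE 0.07, FDR 0.0739, limma), and on total counts it was 0.20 with an FDR of 0.130. The next lowest FDR was 0.409, for miR-20a. The diet difference of no member changed between the sets at FDR < 0.1. By the same limma fit no miRNA did, with 5.01% at an unadjusted p under 0.05 and no member among them.

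Across the calves the members rose and fell together in part, by cluster for some and across clusters for others. In the 21 libraries, 16 of the 45 pairs of members had a Pearson r of log2(CPM + 1) with an adjusted p under 0.05 (two-sided permutation test, Benjamini-Hochberg over the 45 pairs), and all 16 were positive. The median r over the 45 pairs was 0.45, beside -0.0021 over the 87571 pairs of the 419 miRNAs. A value of r at or above the lowest of the 16, 0.51, was found in 3.15% of the pairs of all miRNAs. Pairs that share a cluster had a median r of 0.49 and 10 of 20 past the threshold, and pairs that do not had 0.43 and 6 of 25. This difference was not tested, and its order depends on the setting, with 14 of 20 and 22 of 25 by total counts and 10 of 20 and 11 of 25 without HI calf AP37840. Both members of a pair share a library's scaling factor, and with total counts 36 of the 45 pairs passed (median r 0.67, beside 0.09 over all miRNAs). Spearman's rho passed for 21 pairs, the 16 included, and without the 2 libraries farthest from the median the 16 had r of 0.38 or more. In the 9 libraries, which were not used for the count, all 16 were positive, as were 41 of all 45 pairs (median r 0.50). Without the 2 farthest of these 9 libraries the r of miR-106b with miR-363 went from 0.29 to -0.06, that of miR-18a with miR-19a from 0.69 to 0.11 and that of miR-17-5p with miR-19b from 0.46 to 0.15. In the 9, 4 of the 45 pairs had an adjusted p under 0.05 (exact permutation test). No r over the pairs of all miRNAs is given for the 9, so the counts there have no background beside them.

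The tightest pair was miR-19a with miR-19b, which share a seed and have only MIR20A between their genes in the cluster. Whether reads of one were in part counted as the other was not measured. Their r was 0.98 in the 21 libraries (rho 0.93, permutation p = 1e-05 for each, adjusted p = 0.000112 and 0.000225), and 0.95 without the 2 libraries farthest from the median of miR-19a. In the 9 it was 0.97 (rho 0.98, exact p = 3.58e-05 and 4.96e-05, adjusted p = 0.00161 and 0.00223). The ratio of miR-19b to miR-19a had a median of 8.24, with 5.72 in the lowest library and 9.005 in the highest.

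A second group was formed by miR-17-5p, miR-18a and miR-20a of the miR-17/miR-92a cluster and miR-106b of the MCM7 cluster. The 6 pairs among them had r from 0.72 to 0.89 in the 21 libraries and from 0.75 to 0.88 in the 9. For miR-17-5p with miR-20a, of the same seed family and the same cluster, r was 0.87 (rho 0.80, permutation p = 1e-05 and 5e-05, adjusted p = 0.000112 and 0.000562; 0.84 without the 2 farthest libraries). The cross-cluster pair miR-18a and miR-106b had 0.85 (rho 0.88, permutation p = 1e-05 for each, adjusted p = 0.000112 and 0.000225, 0.89 without 2). On the deposited scaling the 3 pairs among miR-106b, miR-93 and miR-25 had r from 0.42 to 0.47, none past the adjusted threshold, and from 0.66 to 0.69 in the 9. miR-25 was in none of the 16 pairs. Both depend on the scaling, since with total counts these 3 pairs had r of 0.81 (miR-106b with miR-25), 0.70 (miR-106b with miR-93) and 0.66 (miR-93 with miR-25), and miR-25 had r of 0.56 or more with each member but miR-92a (0.29).

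The miR-19 pair joined this group less closely by r, and in the 21 libraries r depended on 1 calf. The 6 pairs of miR-19a or miR-19b with miR-17-5p, miR-18a or miR-20a had r from 0.51 to 0.66 in the 21 libraries and from 0.36 to 0.74 in the 9. Without HI calf AP37840, an alternative chosen after seeing the data, r rose from 0.51 to 0.80 for miR-17-5p with miR-19a and from 0.61 to 0.85 for miR-17-5p with miR-19b, and 21 of the 45 pairs passed. Without HI calf AP13745 they were 0.48 and 0.58, and 14 pairs passed. With all 21 libraries rho was 0.63 for miR-17-5p with miR-19a and 0.67 for miR-17-5p with miR-19b. In the 9 libraries, which do not include AP37840, r was 0.36 and 0.46 for these pairs.

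miR-92a, the last hairpin of the same transcript, was not seen to vary with the other 5 in the 21 libraries. Its r with them ran from -0.16 to 0.06 in the 21 libraries and from -0.07 to 0.50 in the 9, and it was in none of the 16 pairs. With miR-25, its equal in level and seed, r was 0.22 (rho 0.17, permutation p = 0.347 and 0.453, adjusted p = 0.422 and 0.536). Among 40 pairs of members with relatives, the one of miR-92a with miR-17-3p, the low arm of the miR-17 hairpin, had r 0.71 (rho 0.57, permutation p = 0.00039 and 0.00794, adjusted p = 0.0092 and 0.0928, 0.56 without the 2 farthest libraries) and 0.63 in the 9. The 2 arms of miR-17 themselves had r -0.34 (rho -0.20, permutation p = 0.129 and 0.379, adjusted p = 0.300 for r), and the ratio of miR-17-5p to miR-17-3p ran from 2.85 to 7.15 with a median of 4.81. miR-92a rose with miR-92b in the 21 libraries (r 0.60, rho 0.71, permutation p = 0.00351 and 0.00043, adjusted p = 0.0281 and 0.0172, 0.52 without 2), while in the 9 r was 0.17. Apart from miR-92a, the relative miR-106a, at 4 to 20 reads a library, rose with miR-20a. Their r was 0.63 in the 21 (rho 0.56, permutation p = 0.0023 and 0.00953, adjusted p = 0.023 and 0.0928, 0.48 without 2). In the 9 it was 0.64 (exact p = 0.0562, adjusted p = 0.372).

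**Figure D4:**
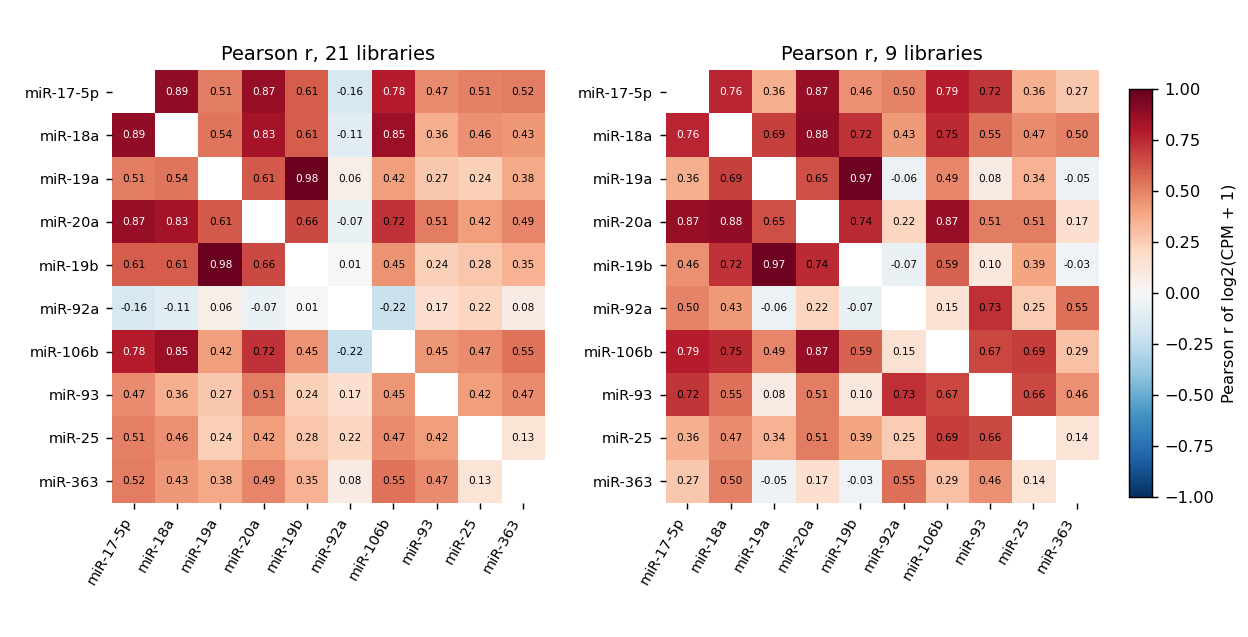
Pearson r of log2(CPM + 1) for each pair of members in the 21 libraries (left) and the 9 libraries (right), in gene order within clusters, with red for positive and blue for negative values. miR-19a with miR-19b reaches 0.98 and 0.97, miR-17-5p, miR-18a, miR-20a and miR-106b form a block of 0.72 or more, and the row of miR-92a is pale on the left.

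miR-92b ran against the miR-19 pair. In the 21 libraries its r was -0.69 with miR-19a and -0.71 with miR-19b (rho -0.44 and -0.48, permutation p for r = 0.00133 and 0.00046, adjusted p = 0.0177 and 0.0092). The rho did not pass (permutation p = 0.0464 and 0.0296, adjusted p = 0.206 and 0.151). Without the 2 farthest libraries r was -0.48 and -0.56, and without AP37840 alone -0.43 and -0.50. In the 9 libraries, which that calf is not in, r was -0.79 and -0.78 (exact p = 0.011 and 0.0148, adjusted p = 0.243 over the 40 pairs for each).

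**Figure D5:**
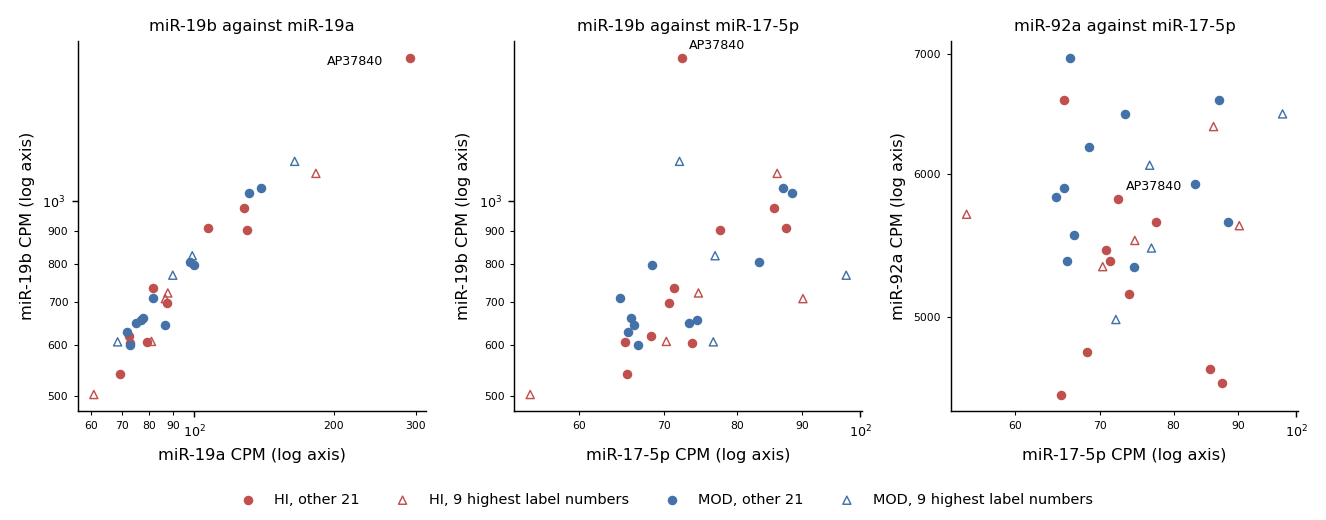
TMM-scaled CPM (log axes) of miR-19b against miR-19a, miR-19b against miR-17-5p and miR-92a against miR-17-5p in every calf, with HI calves in red, MOD calves in blue and open triangles for the 9 calves with the highest label numbers. The miR-19 pair lies on 1 line up to HI calf AP37840 at 291 and 1665 CPM, that calf lies off the others against miR-17-5p at 72.4 CPM, and r of miR-92a with miR-17-5p is -0.16 in the 21 libraries and 0.50 in the 9.

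Beyond the family, the miRNAs most like the 3 most abundant members in the 21 libraries were taken from 405 others by the highest r, which is a description. They were miR-1468 (r 0.69) and miR-128 (0.67) for miR-92a, with 0.44 and 0.47 in the 9 libraries that were not used to choose them (exact p = 0.230 and 0.209, adjusted p = 0.276 for each over the 6). For miR-25 they were miR-486 (0.60) and miR-185 (0.57), with 0.28 and 0.64 in the 9 (exact p = 0.455 and 0.0653, adjusted p = 0.455 and 0.131). For miR-19b they were let-7b (0.81) and miR-376c (0.70), with 0.74 and 0.78 in the 9 (exact p = 0.0244 and 0.0146, rho 0.68 and 0.82, adjusted p = 0.0731 for each r), and without the 2 farthest of these libraries 0.39 and 0.61. Without AP37840 the r of miR-19b with let-7b in the 21 was 0.68 and that with miR-376c was 0.76.

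The members were also set beside depth, the TMM factor and the summed markers of 7 cell types, 90 relations in all in the 21 libraries. No Pearson r had an adjusted p under 0.05 (lowest 0.0893, permutation test). miR-19a and miR-19b had r 0.66 and 0.62 with the log2 TMM factor, and 0.38 and 0.35 without AP37840. With the endocrine markers miR-375 and miR-7, which summed to 119220 to 191519 CPM in the 21, they had r -0.56 and -0.62, and -0.38 and -0.48 without that calf. Most of that sum was miR-375. miR-92a had r 0.56 with it in the 21 (rho 0.53, permutation p = 0.00775 and 0.0147, adjusted p = 0.134 and 0.152). In the 9 the r was -0.75 for miR-19a, -0.71 for miR-19b and -0.39 for miR-92a. miR-25 was correlated by rank with the sum of the red blood cell markers miR-451, miR-144 and miR-486 (r 0.60, rho 0.67, permutation p = 0.00397 and 0.00117, adjusted p = 0.0893 and 0.0315), while in the 9 r was 0.28 and rho 0.47 (exact p = 0.452 and 0.213, adjusted p = 0.859 and 0.598). That sum was nearly all miR-486, with which alone miR-25 had r 0.60 in the 21, so it stands for 1 miRNA and not for 3. With the same markers miR-19a and miR-19b had r -0.10 and -0.02 in the 21, and 0.54 and 0.55 without AP37840. For the neural markers, of which miR-9-5p and miR-137 passed the filter and the 3 listed summed to 37.4 to 166 CPM on HI and 39.3 to 69.3 CPM on MOD, rho was 0.76 with miR-18a, 0.69 with miR-17-5p, and 0.65 with miR-20a and miR-106b (permutation p = 0.00015, 0.00064, 0.00163 and 0.00175, adjusted p = 0.0135, 0.0288, 0.0315 and 0.0315), with r from 0.43 to 0.53, and from 0.67 to 0.81 without the 2 libraries farthest from the median of these markers. In the 9 libraries the rho of these 4 miRNAs with the neural markers ran from 0.50 to 0.70, none past the adjusted threshold. The part of these measures in the relations among members was not tested.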

How the data were processed

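Small RNA of the anterior pituitary of 30 calves was analysed, with each library's diet taken from its label. The authors clipped adapters (Cutadapt), discarded reads outside the length of miRNAs and those of other short RNA classes, counted known bovine miRNAs by miRDeep2 on ARS-UCD1.2, and scaled the counts in edgeR. The submitters' processing notes name FastQC 0.11.8, cutadapt 2.6, R 3.4 and edgeR 3.5. The deposited values are a signal, CPM divided by TMM factors, and not raw counts. Low values are multiples of what 1 read is worth, which gave the reads back. At least 94.9% of values in a library came out whole (within 0.001 read), totals were right in 20 of 20 simulated libraries, and TMM factors recomputed by edgeR were within 1.81e-05 of those deposited. None of the 435 pairs of libraries were copies (lowest chi-square per degree of freedom 74.6).

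The members and lists were chosen with earlier results of these data known. As the values were not raw counts, the test was limma 3.58.1 (R 4.3.3, eBayes with trend) on log2(CPM + 1) of 419 miRNAs passing filterByExpr of edgeR 4.0.16 by diet. Thresholds were an FDR of 10% and a fold change of 1.5, and folds are HI against MOD on that log scale. In simulated data for the 419 miRNAs, with 200 changed 1.5-fold, limma called 178 of these with the correct sign, together with 10 others, and it called 0 where nothing had been changed. Far fewer miRNAs passed FDR < 0.1 in the data, 15 of 419, and the FDR cutoff is stricter when fewer change. The simulated rate is therefore not the power of the diet test. Single values were compared by two-sided permutation tests of 100000 resamples, or exact tests within the sets of 21 and 9. Alternatives were edgeR's quasi-likelihood and exact tests and DESeq2 1.42.0 on the recovered reads, other scalings, filters, a pseudocount of 0.1, covariates, the sets alone, and 30 fits that each left out 1 calf. Of 10 marker lists, 7 had at least 2 tested members and were used. The named miRNAs are the members, 7 listed relatives, the 2 miRNAs most like each of the 3 most abundant members, and markers. The marker miR-203 and the sequences of the mature miRNAs were not analysed here. RefSeq genes of ARS-UCD2.0, another build, were used for names and neighbours only. P-values measure the spread between calves.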

Additional observations from a re-analysis of the deposited data

How the results depend on the processing

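No member passed FDR < 0.1, with or without the fold change threshold, under any of the 16 alternatives or the 30 fits without 1 calf. The diet estimates of miR-92a (-0.19 to -0.0057) and miR-93 (0.0065 to 0.09) kept their sign in all of them, and the lowest FDR of miR-92a was 0.132, in a fit without 1 calf. The cause of the changes below was not tested. With total counts the log2 fold change turned to 0.045 for miR-17-5p, 0.041 for miR-20a, 0.059 for miR-19b and 0.035 for miR-25, and with library sizes free of the 5 most abundant miRNAs to 0.048, 0.044, 0.062 and 0.038. With miR-486, the most abundant red cell marker, as a covariate it was 0.013 for miR-17-5p, 0.0068 for miR-20a, 0.0018 for miR-25 and -0.0013 for miR-363. For miR-19b it was 0.038 by either edgeR test, 0.027 by DESeq2 and 0.0069 with upper quartile scaling. In the 21 libraries alone miR-17-5p had 0.016, miR-20a 0.0026 and miR-19b 0.086, and in the 9 alone miR-18a had -0.036, miR-19a -0.11 and miR-106b -0.050. Without 1 calf the estimates ran from -0.038 to 0.012 for miR-17-5p, -0.025 to 0.15 for miR-19a, -0.055 to 0.012 for miR-20a and -0.085 to 0.040 for miR-19b.

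Over all miRNAs, 15 passed FDR < 0.1 and 2 both thresholds. DESeq2 gave 24, miR-486 as a covariate 9 and the 9 libraries alone 0, where 26 had an unadjusted p under 0.05. Both thresholds were passed by 4 with edgeR's quasi-likelihood test, its exact test and DESeq2, by 0 with miR-486 as a covariate, by 1 in the 21 alone and by 0 in the 9 alone. Without 1 calf the counts were 14 to 21 and 2 to 4. With total counts 16 of 18 calls were higher in HI calves and with sizes free of the 5 most abundant miRNAs 19 of 20, against 8 of 15. Between the 9 and the 21 libraries 0 members passed with total counts. The correlated pairs of members were 36 with total counts, 16 to 22 with the 3 other alternatives, and 14 to 21 without 1 of 2 calves. The 8 neighbours in level that differed were 8 in each alternative. The paper states that calves were blocked by farm, sire, age and bodyweight before diets were assigned. The labels do not give the block, sire or farm of a calf, and the groups share no replicate numbers. No paired or blocked analysis was therefore possible, and the blocking is not in the fits. At 39 to 131 reads a library, counting error limits miR-363 most among the members.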

Other observations

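miR-19b and miR-92a, which each have a gene in 2 clusters, were the members whose recovered reads were not all whole numbers. The reads of miR-19b ended in 0.5 in 17 of 30 libraries and those of miR-92a in 19 of 30, while the other 8 members and the 7 relatives were whole in all 30.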
